A study of Mus musculus with 15 samples.

Results

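The interferon-inducible GTPases of the guanylate-binding protein (GBP) and immunity-related GTPase (IRG) families were followed across the submandibular salivary glands of adult male C57BL/6 mice. The 10 genes Gbp2, Gbp3, Gbp5, Gbp6, Gbp7, Iigp1, Igtp, Irgm1, Irgm2 and Tgtp1 were chosen by name. Of these, 8 had a row among the 39179 genes of the count tables, and Gbp5 and Gbp6 were not analysed here. Glands of 5 groups were sequenced, in 3 libraries each. IR+Gli1, IR+Shh and IR+GFP glands had received intraglandular transfer of Gli1, Shh or GFP (green fluorescent protein) and were taken 7 days after local irradiation. IR glands were irradiated wild-type glands taken at the same time, without gene transfer, and NT glands were untreated and wild type. Gli1 is a transcription factor at the end of the Hedgehog pathway and Shh is a secreted ligand of that pathway. The radiation dose and the vector, source and species of the transferred sequences are not given in the sources used here.

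GBP and IRG proteins bind to the membranes of vacuoles that hold bacteria or protozoa inside a cell, and help to break them open. Interferon gamma and type I interferons induce their genes through transcription factors of the STAT and IRF families. In mice, IRG proteins of a regulatory group (Irgm1, Irgm2 and Igtp) keep effector IRG proteins (such as Iigp1 and Tgtp1) inactive on the cell's own membranes, and the ATG8 conjugation machinery of autophagy helps to direct effectors and GBPs to the vacuole.

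Of the 3 libraries of every group, 2 had gene counts that agreed more closely than sampling noise would give. The mean chi-square per gene of these pairs was 0.215 to 0.337, against 22.0 to 223 in the other pairs within groups. In only 1 to 5 genes did the smaller library of such a pair have more reads than the larger. How these pairs arose was not tested. Each pair was counted as 1 sample (IR+Gli1 1 and 2, IR+Shh 1 and 3, IR+GFP 1 and 2, IR 1 and 2, NT 2 and 3), which left n = 2 samples per group, a combined sample and a single library. The labels do not say that libraries came from separate animals, so that the p-values reflect the spread of these samples alone, which may be technical. Libraries held 18205941 to 41064723 gene reads. IR+Gli1 3 and IR+GFP 3 had 7.53% and 8.22% of reads with several alignments, against 2.89% to 4.79% in the other libraries. Reads of the mouse Gli1 gene did not set the samples labelled IR+Gli1 apart: it had 0.540 and 0.672 CPM (read counts scaled to a common library size by the TMM method) in samples labelled IR+Gli1, 2.69 and 4.24 CPM in IR+Shh and 0.768 and 0.554 CPM in IR+GFP. The mouse Shh gene had 0 reads in all 10 samples. The gene counts therefore do not check the transfer labels, and each direction given below for IR+Gli1 or IR+Shh rests on those labels. Markers of the granular convoluted tubule of the submandibular gland summed to 11710 and 29069 CPM in IR+Gli1 glands, 50499 and 56647 CPM in IR+Shh, 83986 and 75602 CPM in IR+GFP, 116322 and 81793 CPM in IR, and 100832 and 95874 CPM in NT. Markers of the sublingual gland, which lies against the submandibular gland, summed to 34462 CPM in the combined NT sample and 184 CPM in the combined IR+GFP sample, against 0.356 to 1.52 CPM in the other samples.

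The promoters carry the letters through which interferon-activated factors are known to bind. For 7 of the 8 measured genes RefSeq (GRCm38.p6) gave a promoter of 250 bases before to 50 bases after the transcription start, and each of the 7 genes held a match to the interferon-stimulated response element (ISRE, GAAANNGAAA on either strand), the site of IRF factors and of complexes that hold IRF9. Of all 27025 genes 3.99% held it in any promoter, and of all 32851 promoters 3.44% did. The gamma-activated site (GAS, TTCNNNGAA), an element of interferon gamma responses, stood in the promoters of Gbp7, Igtp, Irgm2 and Tgtp1. Of all genes 9.55% held it in any promoter, and of all promoters 8.30% did. Both motifs stood together in 0.454% of all promoters. Gbp3 had a second RefSeq promoter, which held neither motif. The windows of 60 bases around the ISRE are shown because the 3 regulatory IRG genes, Tgtp1 and the 3 GBP genes hold that motif near the start; Iigp1 is not among the 7. Each is written 5′ to 3′ in the direction of the gene, with ISRE and GAS matches in capitals. They lie at chr11:58199497-58199556 (Igtp, plus strand), chr11:58214888-58214947 (Irgm2, plus strand), chr11:48871413-48871472 (Irgm1, minus strand), chr11:48992289-48992348 (Tgtp1, minus strand), chr3:142620579-142620638 (Gbp2, plus strand), chr3:142559977-142560036 (Gbp3, plus strand) and chr3:142530258-142530317 (Gbp7, plus strand).
Igtp: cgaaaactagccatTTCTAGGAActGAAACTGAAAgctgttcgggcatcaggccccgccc
Irgm2: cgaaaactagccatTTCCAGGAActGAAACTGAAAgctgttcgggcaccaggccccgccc
Tgtp1: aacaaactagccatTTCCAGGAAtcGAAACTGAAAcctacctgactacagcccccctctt
Irgm1: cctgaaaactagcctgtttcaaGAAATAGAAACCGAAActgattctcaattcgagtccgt
Gbp2: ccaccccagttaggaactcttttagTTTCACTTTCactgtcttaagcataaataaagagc
Gbp3: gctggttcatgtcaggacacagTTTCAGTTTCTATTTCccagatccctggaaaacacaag
Gbp7: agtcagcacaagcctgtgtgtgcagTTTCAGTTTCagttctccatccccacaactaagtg

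The windows of Igtp and Irgm2 were identical at 58 of 60 bases (96.7%), and those of Igtp and Tgtp1 at 38 of 60. In these 3 genes a GAS match stood just before the ISRE match, which began 34 bases before the start in Igtp (position -34), at -64 in Irgm2 and at -77 in Tgtp1. The ISRE matches of the other 4 genes began between -59 (Gbp2) and -24 (Irgm1, the nearer of 2 overlapping matches). In Gbp7 the 2 GAS matches, at -106 and -87, lay outside the window shown. A match describes the letters and does not show that a factor was bound. Among the related GTPase genes tested below, 8 had a promoter and 5 of them an ISRE match. Those without a match were Gm5431, which rose in IR+Gli1 against IR+GFP, and Irgq and 9930111J21Rik2, which did not pass.

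All 8 measured genes were higher in samples labelled IR+Gli1 than in IR+GFP, where 8.23% of the 14300 genes tested were higher and 5.71% lower (edgeR's quasi-likelihood test, Benjamini-Hochberg adjusted p under 0.05 over all genes tested). Log2 fold changes ran from 2.66 (Gbp7) to 5.03 (Gbp2), with a median of 3.86, against a median of 0.01 over all genes tested. The 8 genes followed each other closely across samples and are not separate observations. In every one of them both IR+Gli1 samples lay above both IR+GFP samples, as in 28.9% of all genes tested. With these 2 groups fitted alone none of the 8 passed in edgeR, in a setting that called 1 of 13766 genes higher and 0 lower. Without IR+GFP 1 and 2, which leaves 1 sample in that group, fewer of the 8 passed and the median log2 was 3.49. The directions were the same. In IR+Shh against IR+GFP, in IR+GFP against IR and in IR against NT, none of the 8 passed.

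**Figure D1:**
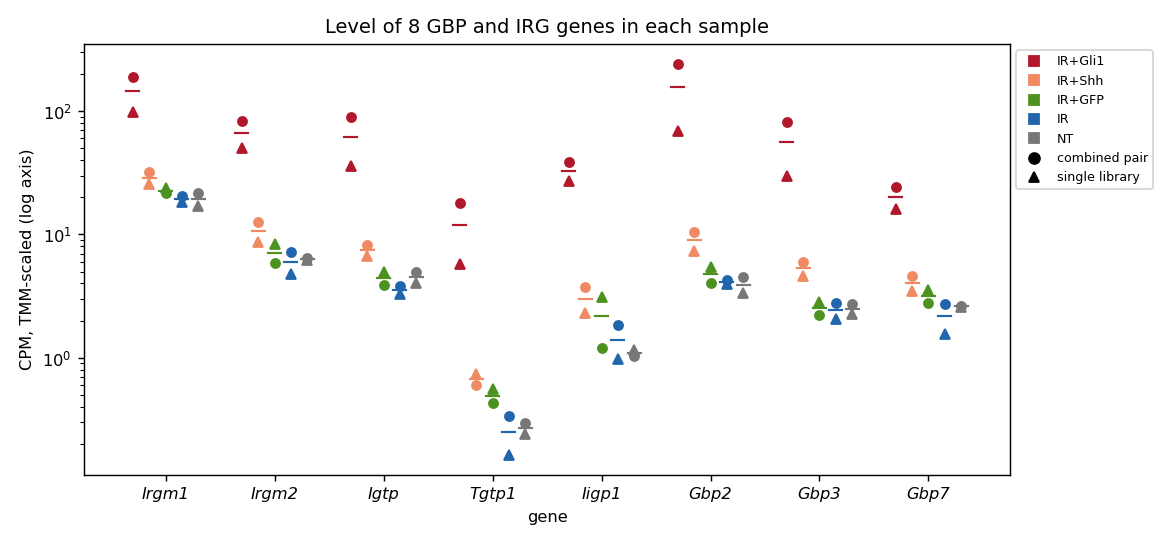
Level of each of the 8 measured GBP and IRG genes in every sample, in CPM scaled by TMM on a log axis. Colours give the groups, circles the combined pair of libraries, triangles the single library and short lines the mean of both (n = 2). Both IR+Gli1 samples lie above all 8 samples of the other groups for each gene, and the combined IR+Gli1 sample lies above the single one.

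Among the regulatory IRG genes, Irgm1 (on the minus strand at chr11:48861968-48871683 in GRCm38) protects cells against intracellular bacteria and takes part in autophagy. Irgm1 had 190.2 CPM in the combined sample and 98.6 CPM in the single library labelled IR+Gli1, 31.8 and 25.5 CPM in IR+Shh, 21.5 and 23.6 CPM in IR+GFP, 20.6 and 18.3 CPM in IR, and 21.8 and 16.9 CPM in NT. Only the IR+Gli1 samples stood clear of the narrow range of 16.9 to 31.8 CPM that held the other 8. The fitted log2 difference between IR+Gli1 and IR+GFP was 2.68 ± 0.30 (SE), with an edgeR adjusted p of 0.00362.

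Irgm2 and Igtp lie side by side on chromosome 11 (chr11:58199618-58222782 and chr11:58199556-58207591, both plus strand), and GENCODE vM21 exons of Irgm2 overlap 8.01% of the exon bases of Igtp. Irgm2 had 82.9 and 49.7 CPM in the combined and the single IR+Gli1 sample, 12.6 and 8.66 CPM in IR+Shh, 5.89 and 8.36 CPM in IR+GFP, 7.20 and 4.81 CPM in IR, and 6.39 and 6.22 CPM in NT. Igtp had 88.7 and 35.5 CPM in IR+Gli1 glands, 8.24 and 6.71 CPM in IR+Shh, 3.92 and 4.98 CPM in IR+GFP, 3.81 and 3.30 CPM in IR, and 4.92 and 4.06 CPM in NT. Both genes were highest in IR+Gli1, and their IR+Shh samples lay above both IR+GFP samples. In IR+Gli1 against IR+GFP, Irgm2 was higher by a log2 of 3.22 ± 0.33 (SE, edgeR adjusted p = 0.00257) and Igtp by 3.80 ± 0.43 (edgeR adjusted p = 0.00394).

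The effector IRG genes had lower CPM than the regulatory ones in every sample, though that of Tgtp1 may be too low, as described below. Iigp1, on chromosome 18, encodes a GTPase that assembles on the vacuole of the parasite Toxoplasma. It had 38.5 and 27.0 CPM in IR+Gli1 glands, 3.73 and 2.29 CPM in IR+Shh, 1.19 and 3.14 CPM in IR+GFP, 1.83 and 0.974 CPM in IR, and 1.03 and 1.15 CPM in NT. The single IR+GFP library lay above the other IR+GFP sample and overlapped the IR+Shh values, while both IR+Gli1 samples were far above all others. Its log2 difference between IR+Gli1 and IR+GFP was 3.93 ± 0.45 (SE, edgeR adjusted p = 0.00362).

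Tgtp1 (chr11:48985327-48994172, minus strand) is another effector IRG gene. It had 17.9 and 5.77 CPM in IR+Gli1 glands (994 and 146 reads), 0.607 and 0.737 CPM in IR+Shh, 0.426 and 0.554 CPM in IR+GFP, 0.340 and 0.162 CPM in IR, and 0.294 and 0.243 CPM in NT, the last 8 values resting on 3 to 20 reads each. It rose by a log2 of 4.43 ± 0.55 in IR+Gli1 against IR+GFP (SE, edgeR adjusted p = 0.00362). The gene is uncertain as an identity, since 79.4% of its windows of 50 bases also occur in its neighbour Tgtp2, and reads with several alignments were not counted. Its CPM may be too low for the same reason. Tgtp2 had 17.4 and 7.82 CPM in IR+Gli1 glands, against 0.512 and 0.246 CPM in IR+GFP, and rose by 4.78 ± 0.65.

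The 3 measured GBP genes lie together on chromosome 3, all on the plus strand: Gbp7 at chr3:142530342-142550149, Gbp3 at chr3:142560026-142573209 and Gbp2 at chr3:142620602-142638008. Gbp2, which in mice coats pathogen vacuoles and promotes their lysis, had 242 and 69.1 CPM in the combined and the single IR+Gli1 sample, 10.5 and 7.37 CPM in IR+Shh, 4.05 and 5.47 CPM in IR+GFP, 4.28 and 3.95 CPM in IR, and 4.48 and 3.34 CPM in NT. The IR+Gli1 samples differed from each other by a factor of 3.51, the widest such ratio among the 8 genes, and both lay above every other sample. The fitted fold was 32.7 (log2 5.03 ± 0.67, SE, edgeR adjusted p = 0.00852).

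Gbp3 had 82.2 and 29.7 CPM in IR+Gli1 glands, 5.98 and 4.61 CPM in IR+Shh, 2.22 and 2.83 CPM in IR+GFP, 2.79 and 2.06 CPM in IR, and 2.72 and 2.24 CPM in NT. Gbp7 had 24.2 and 16.2 CPM in IR+Gli1 glands, 4.59 and 3.50 CPM in IR+Shh, 2.77 and 3.57 CPM in IR+GFP, 2.75 and 1.57 CPM in IR, and 2.64 and 2.58 CPM in NT. The 2 genes had like CPM in the other groups, without scaling to exon length. Per kilobase of exon, the mean of Gbp3 was above that of Gbp7 in every group (0.773 against 0.565 in IR+GFP). In IR+Gli1 against IR+GFP, Gbp3 rose by a log2 of 4.45 ± 0.52 (SE, edgeR adjusted p = 0.00410) and Gbp7 by 2.66 ± 0.29 (edgeR adjusted p = 0.00216). In Gbp7, 11.4% of exon bases overlap the gene model Gm43802.

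Within IR+Gli1 the combined sample exceeded the single library for each of the 8 genes, by a factor of 1.43 (Iigp1) to 3.51 (Gbp2). Over all genes tested the same ratio had a median of 1.01 and quartiles of 0.847 and 1.19. Summed over the 8 genes, the level was 767 and 332 CPM in the combined and the single IR+Gli1 sample, 78.0 and 59.4 CPM in IR+Shh, 42.0 and 52.5 CPM in IR+GFP, 43.6 and 35.2 CPM in IR, and 44.3 and 36.8 CPM in NT. Markers of monocytes and neutrophils were also higher in the combined IR+Gli1 sample, at 158 and 40.1 CPM. They had 6.55 and 4.06 CPM in IR+Shh, 1.88 and 2.64 CPM in IR+GFP, 1.97 and 2.22 CPM in IR, and 3.08 and 3.88 CPM in NT. In IR and NT this order of the samples was the reverse of that of the summed 8 genes. T and NK cell markers (6.48 and 4.74 CPM) and endothelial markers (34.0 and 28.4 CPM) were likewise higher in the combined IR+Gli1 sample. Acinar, granular tubule, and B and plasma cell markers were lower there.

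**Figure D2:**
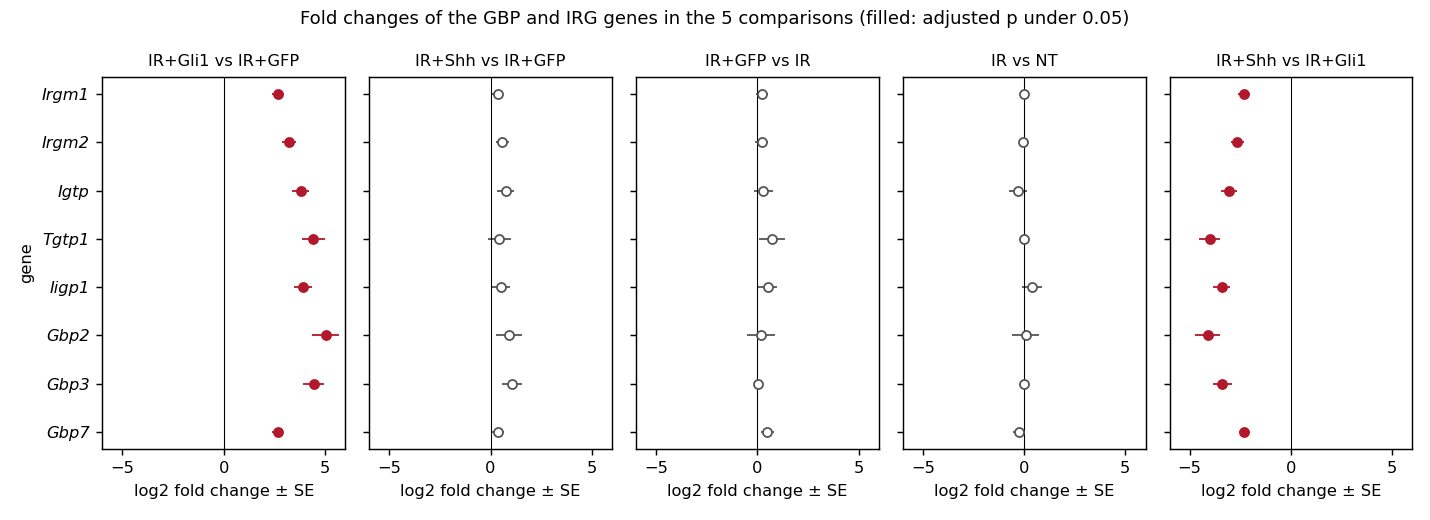
Fitted log2 fold change of the 8 genes in the 5 comparisons, with the SE as a bar. Filled points have an adjusted p under 0.05 and open points do not. No bar is drawn where the log2 fold change was under 0.05 in size, since the SE, taken from the fold change and its test statistic, is then unstable. All points are filled in IR+Gli1 against IR+GFP and in IR+Shh against IR+Gli1, and none in the other 3 comparisons.

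Per kilobase of exon, Irgm1 was the most abundant of the 8 genes in each of the 8 samples outside IR+Gli1, and Gbp2 in both IR+Gli1 samples. In IR+GFP the mean level was 3.89 ± 0.25 CPM per kb for Irgm1 (SD, n = 2), followed by Igtp with 2.20 ± 0.37, Irgm2 with 1.93 ± 0.48, Gbp2 with 1.89 ± 0.40, Gbp3 with 0.773 ± 0.132, Gbp7 with 0.565 ± 0.10, Iigp1 with 0.372 ± 0.236 and Tgtp1 with 0.153 ± 0.028 CPM per kb. Irgm1 was set apart from Igtp, and Gbp2 from Gbp3, beyond the SDs of the means; the SDs of the other neighbours in this order overlapped. In IR+Gli1, Gbp2 reached 61.9 ± 48.7 CPM per kb, Igtp 30.7 ± 18.6, Irgm1 24.9 ± 11.1, Irgm2 17.98 ± 6.36, Gbp3 17.1 ± 11.4, Iigp1 5.62 ± 1.39, Tgtp1 3.69 ± 2.68 and Gbp7 3.60 ± 1.01 CPM per kb (SD, n = 2), and the SDs of all neighbours in that order overlapped. These SDs hold the difference in level between the samples. The place of Tgtp1 in both orders may be too low, since reads that it shares with Tgtp2 were not counted. Gbp2 was above Igtp within each of them, and Gbp3 (25.2 and 9.09 CPM per kb) lay above Iigp1 (6.60 and 4.63 CPM per kb) without overlap.

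Shares were also taken within each sample. Gbp2 made up 40.6% and 29.2% of the summed CPM per kb of the 8 genes in the combined and the single IR+Gli1 sample, 20.2% and 18.7% in IR+Shh, and 14.2% to 17.9% in the 6 samples of IR+GFP, IR and NT. Irgm1 made up 13.8% and 18.1% in IR+Gli1, 26.6% and 28.1% in IR+Shh, and 30.8% to 35.9% in the other 6 samples. Igtp kept to between 17.3% and 21.6% in all 10 samples. The shares of Gbp2 and Irgm1 in IR+Shh thus lay between those in IR+Gli1 and those in the other groups.

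**Figure D3:**
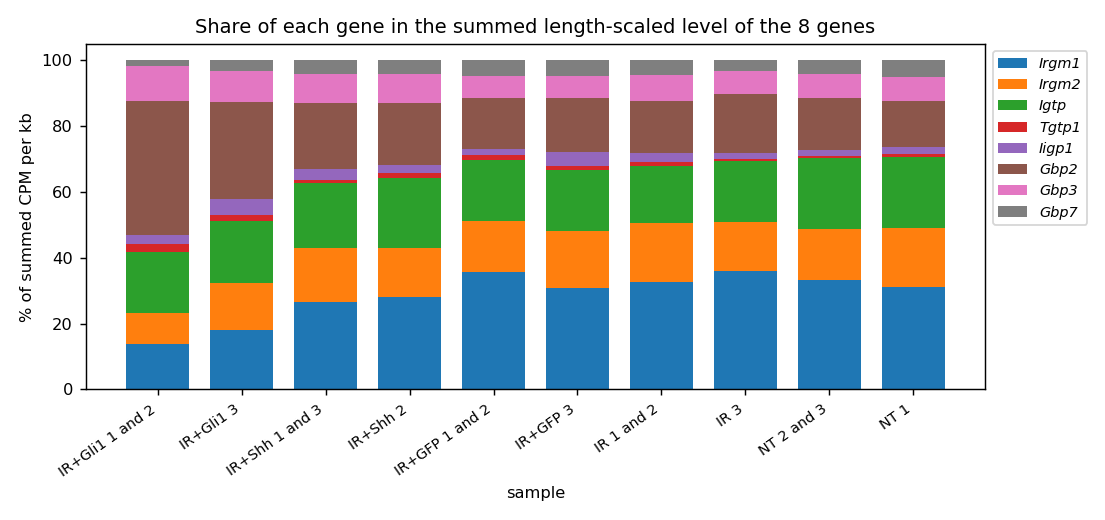
Share of each gene in the summed CPM per kb of the 8 genes, for each of the 10 samples, as stacked bars that add to 100%. The share of Gbp2 is largest in the IR+Gli1 samples (40.6% and 29.2%), where that of Irgm1 is smallest (13.8% and 18.1%).

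In IR+Shh against IR+GFP none of the 8 genes passed, and none of the 14300 genes tested did (0% called by edgeR's quasi-likelihood test). Unadjusted p fell under 0.05 for 872 genes but for none of the 8, DESeq2 called 22 genes higher and 12 lower, and limma-voom called none. All 8 log2 fold changes were positive, from 0.34 (Irgm1) to 1.06 (Gbp3, ± 0.52 SE, edgeR adjusted p = 0.822), with a median of 0.54 against 0.00 over all genes tested. The samples did not overlap and were higher in IR+Shh for 6 of the 8 genes (all but Gbp7 and Iigp1), against 21.7% of all genes tested. The 8 genes followed each other closely across samples, so they do not count as separate observations. Without IR+GFP 1 and 2 the median was 0.31, and without IR+GFP 3 it was 0.88, so the value depends on which IR+GFP sample is kept. Without a filter on low counts, Gbp2, Gbp3, Igtp and Irgm2 passed in this comparison. That setting called 196 genes higher and 239 lower of 22949, against 0 in the main fit.

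IR+Shh and IR+Gli1 were also compared directly, and all 8 genes were lower in IR+Shh, where 4.99% of genes tested were lower and 2.76% higher. Log2 differences ran from -2.31 (Gbp7, ± 0.28 SE) to -4.12 (Gbp2, ± 0.62), with edgeR adjusted p of 0.00673 to 0.0209 and a median of -3.22, against -0.02 over all genes tested. These calls were lost with the 2 groups fitted alone, in a setting that called 1 gene higher and 8 lower of 13823. They were also lost when either IR+Shh sample was left out, which leaves 1 sample in that group. The medians were then -3.00 without IR+Shh 2 and -3.39 without IR+Shh 1 and 3. This comparison shares its samples with those against IR+GFP and is not independent of them.

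In IR+GFP against IR none of the 8 passed, and none of the 14300 genes did (0% called by edgeR). There, 298 genes had an unadjusted p under 0.05, none of them among the 8, DESeq2 called 8 genes and limma-voom none. Log2 fold changes of the 8 genes were 0.02 (Gbp3) to 0.72 (Tgtp1, ± 0.63 SE), all positive, with a median of 0.25 that fell to 0.05 without IR+GFP 3. In IR against NT, where 0.517% of genes were called higher and 0.161% lower, the 8 genes ranged from -0.32 (Igtp, ± 0.44 SE) to 0.39 (Iigp1, ± 0.49), and their median was -0.01. Igtp was the only one of the 8 whose IR and NT samples did not overlap, at 3.81 and 3.30 CPM in IR and 4.92 and 4.06 CPM in NT; 27.3% of all genes tested were likewise lower in IR without overlap. With an edgeR adjusted p of 0.765 it did not pass.

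Most related GTPases were higher in IR+Gli1 as well, where 8.23% of all genes tested rose and 5.71% fell against IR+GFP. Of 22 other GBP, IRG, GVIN (very large inducible GTPases) and Mx (antiviral GTPases) genes listed, 19 had a row in the tables and 17 could be tested. In IR+Gli1 against IR+GFP 14 of the 17 rose and none fell; without IR+GFP 1 and 2 it was 4 of 18. Many of the 17 had enough reads to be tested through the IR+Gli1 samples alone, where they were high, so this count is a description: with the compared groups fitted alone 17 could be tested here, against 10 in IR+Shh and IR+GFP and 7 in IR+GFP and IR. With a filter at 1 CPM in 3 samples 7 were left, of which 5 rose. Gbp4 rose most, by 5.32 ± 0.50 (SE, edgeR adjusted p = 0.00204), with 45.2 and 19.4 CPM in IR+Gli1 glands, against 0.597 and 0.923 CPM in IR+GFP. Gbp2b, between Gbp3 and Gbp2 on chromosome 3, rose by 4.11 ± 0.66, Gbp9 by 4.12 ± 0.42 and Gbp8 by 3.50 ± 0.53. Among IRG genes and gene models, besides Tgtp2, the log2 rise was 4.68 ± 0.48 for Gm12250, 3.34 ± 0.45 for Gm4951 and 3.32 ± 0.51 for Gm5431. The other 3 that rose had almost no reads in IR+GFP, so no fold is given: Gm12185 had 124 and 18 reads in IR+Gli1, against 0 and 2 in IR+GFP, Gm4841 had 43 and 9, against 0 and 0, and F830016B08Rik had 47 and 13, against 0 and 1. Mx1 rose by 4.30 ± 1.04, Mx2 by 3.74 ± 0.48 and Gvin1 by 2.10 ± 0.58. Gvin1 shares 98.3% of its windows of 50 bases with Gm4070 and is therefore uncertain.

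Irgq, 9930111J21Rik1 and 9930111J21Rik2 did not pass. Irgq, an IRG-like gene, had 12.0 and 18.1 CPM in IR+Gli1 glands, 15.5 and 17.3 CPM in IR+Shh, 19.3 and 27.1 CPM in IR+GFP, 22.8 and 19.3 CPM in IR, and 17.5 and 18.2 CPM in NT. Its log2 value of -0.63 ± 0.21 in IR+Gli1 against IR+GFP had the other sign under total-count scaling (0.12). 9930111J21Rik2 followed single libraries, with 3.04 CPM in IR+Gli1 3, against 2.09 CPM in IR+GFP 3, both libraries rich in multiply aligned reads, and 0.171 to 0.684 CPM elsewhere. Gbp11 and Irgc1 had too few reads to be tested: Gbp11 had 4 and 2 reads in IR+Gli1 and 0 in every other sample, and Irgc1 had at most 12. In IR+Shh against IR+Gli1 10 of the 17 fell, beside 4.99% of all genes tested, and in the other 3 comparisons none of the 17 passed.

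The position of the genes was compared with their behaviour. Within 200 kb of the 8 measured members, 40 genes could be tested in 4 clusters, 18 of them listed GTPase genes and 22 not. In IR+Gli1 against IR+GFP 16 of the 18 GTPase genes rose, the exceptions being 9930111J21Rik1 and 9930111J21Rik2. The 18 include the 8 genes reported above. Many of the related genes had enough reads to be tested through the IR+Gli1 samples alone, so this count is a description. Of the 22 other genes 1 rose and 1 fell, beside 8.23% higher and 5.71% lower over all genes tested. The one that rose, Ifi47 (log2 4.64 ± 0.56), is itself an IRG family gene that was not on the list, and was noticed after its value was seen. The one that fell was Kyat3 (-0.76 ± 0.21), an aminotransferase gene beyond the Gbp cluster, also named after its value was seen (total-count scaling moved the median of all genes to 0.78, a shift of about that size).

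**Figure D4:**
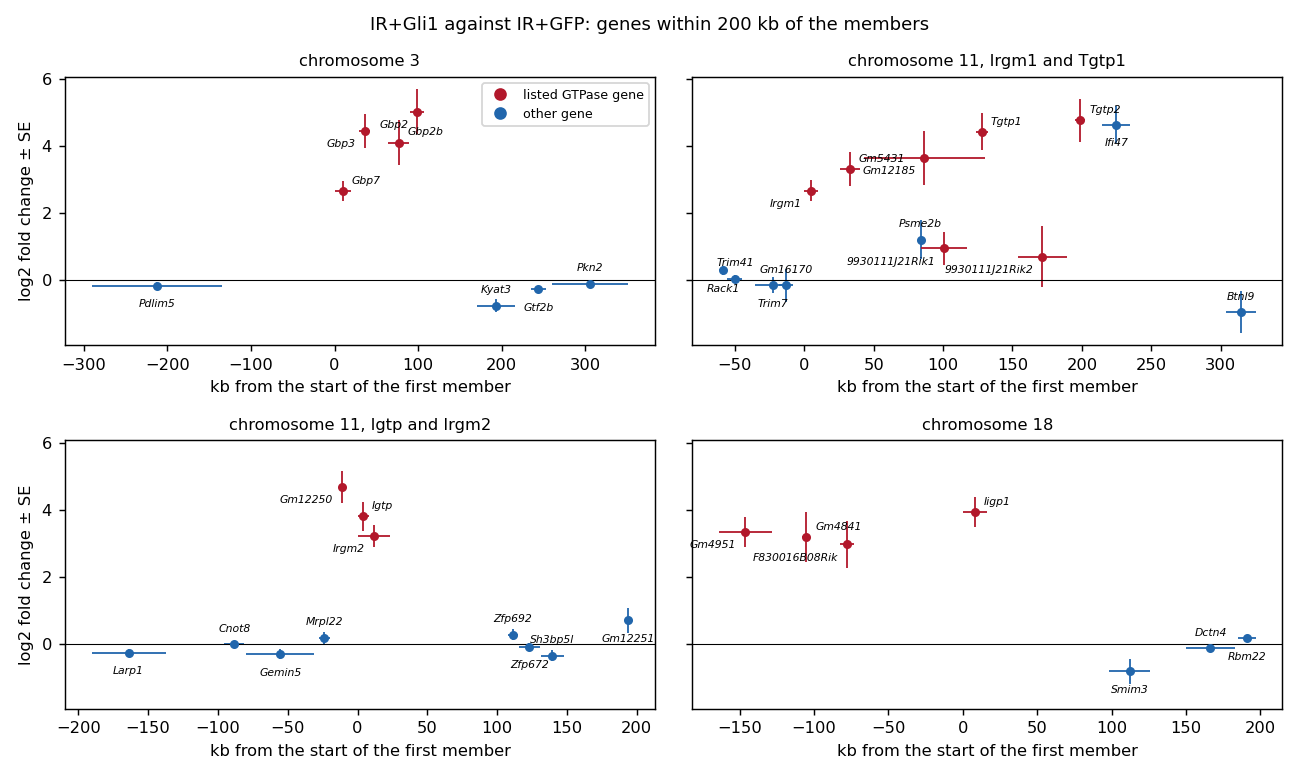
Log2 fold change (± SE) of IR+Gli1 against IR+GFP for genes within 200 kb of the measured members, against the distance in kb from the start of the first member of each cluster; horizontal bars span the gene. Red points are listed GTPase genes and blue points all other genes. The red points lie at 2.66 or above except for 9930111J21Rik1 (0.95) and 9930111J21Rik2 (0.71), and the blue points lie between -0.96 and 1.21 apart from Ifi47 (4.64).

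Interferon genes themselves were near the limit of detection. Of 10 ligand genes, Ifng (interferon gamma) was the only one with enough reads to be tested. It had 30 and 8 reads in IR+Gli1, 0 and 3 in IR+Shh, 0 and 1 in IR+GFP, and 0 in all IR and NT samples. Its log2 value of 2.38 ± 0.78 in IR+Gli1 against IR+GFP did not pass (edgeR adjusted p = 0.0890), nor in DESeq2. It passed in limma-voom, under total-count scaling, with the 15 libraries fitted separately, with or without a replicate block, and with IR and IR+GFP together as control. Ifnb1 (interferon beta) had 22 and 1 reads in IR+Gli1, 1 and 0 in IR+Shh, 0 and 1 in IR+GFP, and 0 in IR and NT. The other 8 (Ifna1, Ifna2, Ifna4, Ifna5, Ifne, Ifnk, Ifnl2 and Ifnl3) had 0 reads in every sample.

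Of the 6 receptor genes, 3 rose in IR+Gli1 against IR+GFP. For this list and those below, 8.23% of all genes tested rose in this comparison and 5.71% fell. Without IR+GFP 1 and 2, 0 of these receptors, 1 JAK or STAT transducer, 1 IRF or BATF factor, 0 inhibitors and 0 inflammasome genes passed, in a setting that called 71 genes higher and 20 lower over all, against 1177 and 816. The sizes moved little: the median log2 was 1.60 against 1.76 for the IRF and BATF factors and 1.88 against 1.78 for the inflammasome genes. Both chains of the interferon gamma receptor were among the 3 receptors that rose. Ifngr1 had 27.2 and 21.8 CPM in IR+Gli1 glands, against 12.9 and 15.8 CPM in IR+GFP, a log2 rise of 0.78 ± 0.16 (SE, edgeR adjusted p = 0.0136). Ifngr2 rose by 0.93 ± 0.20 (edgeR adjusted p = 0.0163), and Ifnar2, a chain of the type I receptor, by 0.69 ± 0.15 (edgeR adjusted p = 0.0180). Ifnar1, the other chain of the type I receptor, had a log2 value of -0.08 ± 0.13 that turned positive under total-count scaling (0.71). Ifnlr1 (0.38 ± 0.14) and Il10rb (0.10 ± 0.18), which form the interferon lambda receptor, did not pass.

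Among 5 JAK and STAT transducers, 3 rose and 1 fell. Stat2, a transcription factor of the type I response, had 91.4 and 67.0 CPM in IR+Gli1 glands, 30.5 and 26.7 CPM in IR+Shh, 21.3 and 20.8 CPM in IR+GFP, 22.6 and 18.3 CPM in IR, and 19.0 and 18.4 CPM in NT, and rose by a log2 of 1.91 ± 0.16 (SE, edgeR adjusted p = 0.00130). Stat3 rose by 0.53 ± 0.13 and the kinase gene Jak2 by 0.44 ± 0.11. The kinase gene Jak1, named because it was the only one to fall (-0.36 ± 0.09, edgeR adjusted p = 0.0333), was higher under total-count scaling (0.42). That scaling moved the median of all genes in this comparison to 0.78, so that small values depend on it.

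Of 10 IRF and BATF factors, 7 rose. Irf9, the DNA-binding partner of STAT2, rose by a log2 of 1.59 ± 0.19 (SE, edgeR adjusted p = 0.00282), with 54.1 and 67.4 CPM in IR+Gli1 glands, against 16.4 and 23.9 CPM in IR+GFP. Irf7, which amplifies type I interferon output, had 507 and 263 CPM in IR+Gli1 glands, 53.5 and 25.3 CPM in IR+Shh, and 7.46 and 13.5 CPM in IR+GFP, a log2 rise of 5.21 ± 0.60. Nlrc5, a coactivator of MHC class I genes, rose by 1.93 ± 0.25 and Batf2 by 3.57 ± 0.61. Irf1, Irf2 and Irf5 were the other 3, and Irf3, Irf8 and Ciita did not pass.

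Of 8 genes listed as inhibitors of interferon signalling, 5 rose. Whether each of them, Isg15 included, restrains that signalling in these glands was not tested. They were Usp18, which blocks the type I receptor (log2 3.52 ± 0.50 SE, edgeR adjusted p = 0.00721), the phosphatase gene Ptpn2 (0.74 ± 0.13), Socs3 (2.63 ± 0.46), the ubiquitin-like modifier gene Isg15 (5.20 ± 0.76) and Socs1 (3.59 ± 0.73). Ptpn6, Pias1 and Irf2bp2 did not pass.

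Of 10 inflammasome and pyroptosis genes, on which GBPs act by exposing bacterial lipopolysaccharide, 6 rose. With a filter at 1 CPM in 3 samples 4 were left, of which 3 rose. Casp4, the sensor of that lipopolysaccharide in mice, had 9.06 and 2.73 CPM in IR+Gli1 glands, against 0.426 and 0.369 CPM in IR+GFP and rose by a log2 of 3.67 ± 0.58 (SE, edgeR adjusted p = 0.00676). Gsdmd, the pore-forming protein it cuts, rose by 2.55 ± 0.42, Casp1 by 2.72 ± 0.46 and Aim2 by 2.32 ± 0.44. Nlrp3 and Pycard also rose, and Nlrc4, Il1b, Il18 and Ninj1 did not pass. Of the 10 genes of the ATG8 conjugation machinery none rose and 1 fell, a share near that over all genes (8.23% higher and 5.71% lower). It was Map1lc3a, which encodes an ATG8 protein (-0.70 ± 0.17, edgeR adjusted p = 0.0245), and the median log2 of the 10 was -0.11. Under total-count scaling, which called 9660 of the 14300 genes higher, 9 of the 10 were called higher, and Map1lc3a had a log2 value of 0.06 that did not pass.

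**Figure D5:**
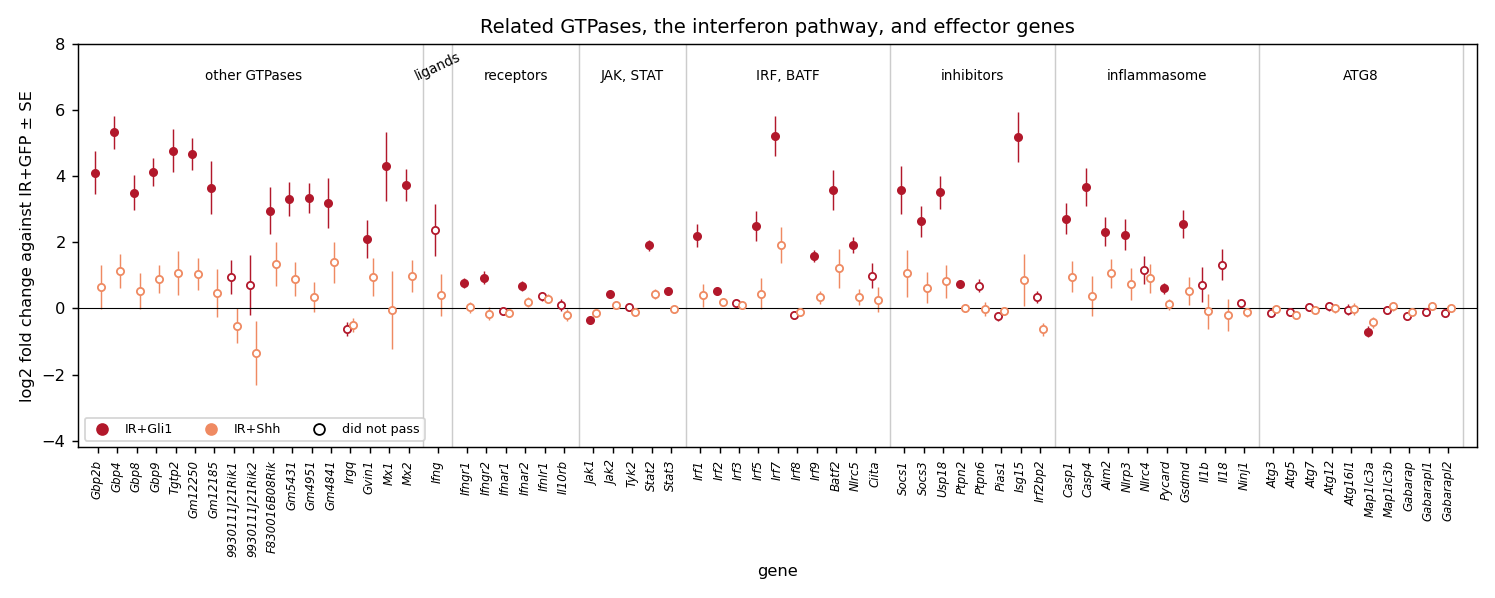
Log2 fold change (± SE) of related GTPases, interferon pathway genes and effector genes, for IR+Gli1 (red) and IR+Shh (orange), each against IR+GFP, which both share as control. Filled points have an adjusted p under 0.05. All filled points belong to IR+Gli1, most of them to the GTPase, IRF, inhibitor and inflammasome lists, and the ATG8 genes lie between -0.70 and 0.09.

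In IR+Shh against IR+GFP no gene of these lists passed. In each list the gene with the smallest p-value had a log2 value of 1.92 ± 0.54 (Irf7, edgeR adjusted p = 0.808), 0.44 ± 0.16 (Stat2), 1.06 ± 0.45 (Aim2), 0.30 ± 0.14 (Ifnlr1), -0.63 ± 0.19 (Irf2bp2), -0.42 ± 0.17 (Map1lc3a) or, among the related GTPases, -0.49 ± 0.21 (Irgq). In IR+Shh against IR+Gli1, 2 of 6 receptors fell (Ifngr2 by -1.08 ± 0.20 and Ifngr1 by -0.74 ± 0.16), with 2 of 5 transducers (Stat2 and Stat3), 6 of 10 IRF and BATF factors, 6 of 8 inhibitors, 3 of 10 inflammasome genes (Casp1, Casp4 and Gsdmd) and none of the ATG8 genes. Over all genes tested 4.99% were lower and 2.76% higher in the main fit. With the 2 groups fitted alone, 0 genes of each of these lists and of the related GTPases passed. That fit called 1 gene higher and 8 lower over all. The list calls were also lost without either IR+Shh sample, which leaves 1 sample in that group. limma-voom called 0 of the 10 inflammasome genes and 4 of the 10 IRF and BATF factors. In IR+GFP against IR and in IR against NT no gene of these lists passed.

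Across the 10 samples, each of the 8 genes followed the mean log2 level of the other 7 closely, with Pearson's r from 0.978 (Iigp1) to 0.997 (Irgm2). Among the genes outside the 8 whose levels were most like their mean were Ddx58, an RNA sensor (r = 0.997), Apol9a (0.995), Apol9b (0.994) and Bst2, a protein that tethers viruses (0.994). These values describe 10 samples that fall into a pair of IR+Gli1 samples and 8 others, and share scaling and depth.

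Some markers of other cell types moved with the GTPases in IR+Gli1 against IR+GFP, and their part in the result was not tested. Over all genes tested 8.23% rose and 5.71% fell in this comparison. Of the monocyte and neutrophil markers 3 of 4 tested rose (Ly6c2 by a log2 of 7.11 ± 1.01). All 5 listed markers together summed to 1.88 and 2.64 CPM in IR+GFP, so these sizes rest on low control values and the count is a description. S100a8 and S100a9, defining neutrophil genes, had 0 reads in both IR+GFP samples, and S100a8 did not pass (edgeR adjusted p = 0.189). Of the macrophage markers 4 of 7 rose, and their sum was 225 and 227 CPM in IR+Gli1 glands, 148 and 151 CPM in IR+Shh, 75.6 and 109 CPM in IR+GFP, 90.6 and 94.2 CPM in IR, and 122 and 148 CPM in NT. T and NK cell markers summed to 6.48 and 4.74 CPM in IR+Gli1 glands, against 0.896 and 2.40 CPM in IR+GFP, with 1 of 4 tested called (Ncr1). In the combined IR+Gli1 sample the 8 genes were all higher than in the single library. So were the sums of monocyte and neutrophil, T and NK cell, and endothelial markers, while the macrophage sums of these samples were alike. Of dendritic cell markers 1 of 3 rose (Itgax), of endothelial markers 1 of 3 (Pecam1) and of B and plasma cell markers none of 1. These lists of 1 to 3 tested genes are too short to set against the share over all genes. Granular tubule markers fell in 3 of 4 cases, and acinar markers in 3 of 5, although Slc12a2 and Amy1, both among the acinar genes that fell, had log2 values of 0.04 and 0.01 under total-count scaling. In RNA of whole glands, fewer cells of a type and less RNA per cell cannot be told apart.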

How the data were processed

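The authors deposited raw counts of reads per Ensembl gene for each library; the tools were TopHat2 2.0.13, Bowtie 0.12.2, DESeq2 and HTSeq 0.10.0, all per the submitters' processing notes, which name mm10 and GRCm38. The annotation release and the strand mode are not given in the sources used here, so reads of overlapping or antisense genes cannot be told apart. Per the labels' protocols, TruSeq libraries were made from total RNA. Lines for reads in no gene (6.98% to 13.9% of reads) stayed out. GENCODE vM21 gave symbols for 96.2% of genes.

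Libraries with a mean chi-square under 1 (genes with at least 20 reads in the pair) were merged by the rounded mean. The fit, in R 4.3.3 with edgeR 4.0.16, took all 10 samples: filterByExpr (14300 genes), TMM, robust quasi-likelihood tests, two-sided, Benjamini-Hochberg adjustment over all genes, threshold 0.05, prior count 2, 5 residual degrees of freedom, common biological coefficient of variation 0.191. SEs were taken as the fold change over the root of F. All members were named in every comparison, as were related GTPases, ligands and receptors; other lists gave up to 4 called genes by smallest adjusted p. Members and lists were chosen with earlier results of these data known. Alternatives used DESeq2 1.42.0 and limma 3.58.1. The fit was tested on simulated data. Same-numbered libraries were checked for pairing. A gene of the pathway lists is not reported here.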

Additional observations from a re-analysis of the deposited data

How the results depend on the processing

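Every direction of the 8 genes in IR+Gli1 against IR+GFP and in IR+Shh against IR+Gli1 held under all alternatives run, but the calls rest on a spread shared by 5 groups. With the compared groups fitted alone, 0 of 8 genes passed in either comparison, the smallest adjusted p in edgeR being 0.0643 and 0.0533. Over all genes these fits called 1 higher and 0 lower for IR+Gli1 against IR+GFP. For IR+Shh against IR+Gli1 they called 1 higher and 8 lower. Leaving out each sample in turn gave 3 (without IR+GFP 1 and 2) to 8 genes in IR+Gli1 against IR+GFP, and 0 (without either IR+Shh sample) to 8 in IR+Shh against IR+Gli1; the lone sample is then assumed to vary like the others. Without a filter on low counts 4 genes (Gbp2, Gbp3, Igtp and Irgm2) passed as higher in IR+Shh against IR+GFP, against 0. Over all genes that setting called 196 higher and 239 lower, against 0, and the cause was not tested. limma-voom called 7 genes in each of the comparisons with 8, Tgtp1 having adjusted p of 0.0567 and 0.0610, and a filter at 1 CPM in 3 samples left Tgtp1 out. Medians moved beyond the spread of the samples under total-count scaling (4.70 and -3.94), without IR+Gli1 1 and 2 (3.17 and -2.34), and without IR+GFP 3 and IR+Gli1 3 (4.70, 8 of 8 called). In that last setting 13 of 18 related GTPases, 3 of 6 receptors, 3 of 5 transducers, 7 of 10 IRF and BATF factors, 7 of 8 inhibitors and 7 of 10 inflammasome genes rose (1 related GTPase fell). Without IR+GFP 1 and 2 these were 4, 0, 1, 1, 0 and 0. Total-count scaling called 9660 genes higher and 89 lower in IR+Gli1 against IR+GFP, against 1177 and 816. The 15 libraries fitted separately gave 3378 and 3140, and 281 higher and 257 lower in IR+Shh against IR+GFP, where the main count was 0. In IR against NT 74 genes were higher and 23 lower, but 150 and 388 without NT 1, and 1921 and 2233 with the 15 libraries apart. The replicate block, fitted to the 15 libraries, called 8 genes in IR+Gli1 against IR+GFP and 8 in IR+Shh against IR+Gli1, and 0 in the others. The numbers were not taken to pair libraries: of 30 same-numbered pairs 3 had a correlation over 0.1 (-0.0959 to 0.395), and 8 of 15 libraries were closest to their own number. Tgtp1, with 3 to 20 reads per sample outside IR+Gli1, and the interferon ligands are limited by depth.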
